A study of Homo sapiens with 9 samples.

Results

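The data describe DKK1 and 9 further genes of the Wnt pathway in BEAS-2B cells, an immortalized human bronchial epithelial line. The 10 genes were DKK1, DKK3, WNT5A, WNT5B, WNT7B, FZD2, FZD7, LRP6, CTNNB1 and AXIN2, out of 63187 genes in the count table, and each was found by its Ensembl identifier. These genes were selected on earlier results of the same libraries, including their change under treatment. Their treatment values are therefore given as a description, and the calls printed for them below are not read as a test. All 10 passed the filter of at least 10 counts in at least 3 libraries, as did 16030 genes in all. The cells were left untreated in medium (control), or were exposed for 24 h to a 2% dilution by volume of aerosol condensate. The condensate came from the carrier liquid of propylene glycol and vegetable glycerol alone (PG/VG), or from a commercial liquid with the same carriers, 18 mg/mL nicotine and Virginia tobacco flavour (EC). All 3 conditions grew in the same serum-containing medium, and EC vs. PG/VG compares nicotine and flavour together with any other difference between the liquids. Each condition had 3 libraries, described in the study's methods as biological replicates and labelled as batches 2, 3 and 4. Libraries are named here by condition and batch, such as control 2.

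Wnt proteins are secreted lipid-modified ligands that bind Frizzled receptors. With the co-receptors LRP5 or LRP6, the canonical branch stabilizes beta-catenin, the CTNNB1 product, which enters the nucleus and works with TCF/LEF factors on target genes. Dickkopf proteins such as DKK1 bind LRP5 and LRP6 and block this branch, whereas WNT5A is best known for signals that do not need beta-catenin. In the airway the pathway is known for roles in lung branching and in epithelial repair.

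Libraries held 16168260 to 24917838 counts assigned to genes, and values below are counts scaled to library size by TMM and given as CPM, with log2 fold changes (LFC) from a model that holds the batch as a term. The line carried the keratins of simple epithelium, with KRT8 between 752 and 1174 CPM and KRT18 between 301 and 628 CPM, beside the mesenchymal genes VIM and FN1 at 822 to 1114 CPM and 2360 to 5545 CPM. The epithelial adhesion genes CDH1 and EPCAM were near 0, at 0.169 to 1.59 CPM and 0.681 to 1.93 CPM, and the basal keratin KRT5 did not exceed 0.0563 CPM. The summed level of 7 epithelial markers was 1776 to 2844 CPM in the control, 1721 to 2737 CPM in PG/VG and 1460 to 2287 CPM in EC. The sum of 5 mesenchymal markers was 5070 to 7015 CPM, 4676 to 6715 CPM and 3572 to 5447 CPM in the same order. In EC vs. control, KRT7, KRT8, KRT18, CDH2 and FN1 fell in edgeR with LFC of −0.45, −0.25, −0.46, −0.25 and −0.58. The KRT8 call was lost without control 2, control 3 or EC 3, and that of CDH2 without control 2, control 3, EC 2 or EC 3. EPCAM, CDH1, KRT19 and COL1A1 were not called, with LFC of 0.57, 0.36, 0.18 and 0.17. VIM and ZEB1 were not called either, at −0.22 and −0.14. In PG/VG vs. control VIM fell (−0.27) and COL1A1 rose (0.26), and both calls were lost without control 2, 3 or 4. The VIM call was also lost without PG/VG 2, PG/VG 3 or EC 3, and that of COL1A1 without PG/VG 2, PG/VG 4 or EC 4. In EC vs. PG/VG, FN1 (−0.47) and KRT7 (−0.32) fell in edgeR. The FN1 call was lost without PG/VG 2, PG/VG 4 or EC 4, and that of KRT7 without PG/VG 3, PG/VG 4, EC 3 or EC 4. What part these differences have in the values below was not tested. Markers of leukocytes (3.07 to 8.89 CPM of CD14, CD3E at 0 in all libraries), endothelium (summed 4.24 to 7.77 CPM) and ciliated or secretory airway cells (summed 0.248 to 1.04 CPM) were low in all conditions.

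In untreated cells the inhibitor DKK1 had the highest level per length of the 10 genes, at 56.3 ± 15.9 CPM per kb of exon (SD, n = 3), and the target gene AXIN2 had the lowest, at 0.221 ± 0.0998 CPM per kb. DKK3 followed DKK1 at 30.8 ± 1.92 CPM per kb and CTNNB1 came next at 30.5 ± 2.21 CPM per kb, and the libraries of these neighbours overlapped. FZD2 stood at 20.7 ± 0.463 CPM per kb, below all libraries of CTNNB1 and above all libraries of FZD7. FZD7, WNT5B and LRP6 lay close together at 7.86 ± 1.22, 7.10 ± 0.397 and 5.69 ± 0.898 CPM per kb, with overlapping ranges between neighbours. WNT5A and WNT7B overlapped as well, at 2.71 ± 0.277 and 2.27 ± 0.484 CPM per kb. The gap between DKK1 and DKK3 depended on the length used. Over 47.5% of its length the exons of DKK3 overlap USP47 on the other strand. Reads on more than 1 gene were not counted, and whether this removed DKK3 reads there depends on the strand setting of the counting, which is not given in the sources used here. If the overlapped exons are left out of the length, DKK3 comes to 58.6 ± 3.66 CPM per kb and overlaps DKK1 at 62.7 ± 17.7 CPM per kb. AXIN2, with an overlap of 25.3%, comes to 0.296 ± 0.134 CPM per kb in the same way and is still the lowest.

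DKK1 (ENSG00000107984) encodes the secreted Dickkopf protein that binds LRP5 and LRP6, and lies on the forward strand of chromosome 10 (GRCh38, chr10:52314281-52318042). The 250 bases before its start are shown because DKK1 is itself known as a target of beta-catenin and TCF, and they are set beside windows of the same length before RefSeq starts of WNT5A and WNT5B, a related pair of ligands whose levels differed in opposite directions from the control. Capitals mark CTTTGA, a form of the TCF/LEF core, or its reverse complement TCAAAG. This was the only motif searched, on both strands, and other forms of the core are not marked. The sequences are from RefSeq on GRCh38.p14, written 5′ to 3′ on the strand of the gene.
DKK1, chr10:52314031-52314280, forward strand: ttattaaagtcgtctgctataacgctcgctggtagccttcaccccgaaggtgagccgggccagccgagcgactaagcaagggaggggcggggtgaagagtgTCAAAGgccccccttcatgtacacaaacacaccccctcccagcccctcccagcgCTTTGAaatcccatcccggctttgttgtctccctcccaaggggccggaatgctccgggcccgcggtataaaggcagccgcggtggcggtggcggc
WNT5A, chr3:55481399-55481648, reverse strand: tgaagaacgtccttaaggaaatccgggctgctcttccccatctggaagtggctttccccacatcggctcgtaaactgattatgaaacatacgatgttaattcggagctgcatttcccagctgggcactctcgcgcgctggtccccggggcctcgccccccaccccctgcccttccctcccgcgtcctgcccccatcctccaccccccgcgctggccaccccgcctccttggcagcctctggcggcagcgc
WNT5B, chr12:1628981-1629230, forward strand: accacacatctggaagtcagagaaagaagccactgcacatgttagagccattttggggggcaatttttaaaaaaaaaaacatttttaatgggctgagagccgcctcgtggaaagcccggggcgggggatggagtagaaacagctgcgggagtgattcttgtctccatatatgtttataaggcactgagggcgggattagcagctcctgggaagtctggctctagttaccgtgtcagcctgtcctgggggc
In the annotation the DKK1 window lies upstream of the gene, within an exon of the antisense gene PRKG1-AS1, and the other windows lie inside their genes, outside the exons. The DKK1 window held 2 matches, with their first bases at −149 and −95 from the start, and these letters are not in the WNT5A and WNT5B windows. Of 35116 RefSeq promoters of the same length, 3937 (11.2%) held at least 1 match. Entries were found for 4 of the 10 genes, and of these DKK1 alone held a match. A match is a string of letters and is no measure of binding.

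DKK1 was lower after both condensates than in the untreated library of the same batch. Its level was 115, 95.7 and 164 CPM in control 2, 3 and 4, it was 73.9, 73.0 and 106 CPM in PG/VG 2, 3 and 4, and it was 94.7, 81.5 and 122 CPM in EC 2, 3 and 4. Within each batch the order was control above EC above PG/VG, whereas across batches the ranges overlapped because batch 4 was high in all conditions. The LFC was −0.55 ± 0.0736 (SE, 3 libraries per condition) for PG/VG vs. control, with −0.64, −0.39 and −0.63 in batches 2, 3 and 4. For EC vs. control it was −0.32 ± 0.0731, with −0.28, −0.23 and −0.43 in the batches. The direct LFC of EC vs. PG/VG was 0.24 ± 0.0733, positive in 3 of 3 batches. In bulk RNA, fewer cells with DKK1 RNA and less DKK1 RNA per cell cannot be told apart. About 10.2% of the DKK1 exon length overlaps the antisense gene PRKG1-AS1, which had 3 to 14 counts per library.

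DKK3 (ENSG00000050165, chr11:11956207-12009769, reverse strand), a Dickkopf family member that does not share the clear LRP antagonism of DKK1, differed little between conditions. Its level was 353, 357 and 394 CPM in control 2, 3 and 4, it was 351, 330 and 351 CPM in PG/VG, and it was 340, 359 and 340 CPM in EC. The 3 PG/VG libraries lay narrowly below the 3 control libraries, and the EC range overlapped the control. The LFC was −0.10 ± 0.0677 for PG/VG vs. control and −0.09 ± 0.0677 for EC vs. control. The ratio of DKK3 to DKK1 CPM within a library was 3.06 ± 0.662 in the control, 4.19 ± 0.780 in PG/VG and 3.60 ± 0.802 in EC (SD, n = 3), and it was higher than the control of the same batch in all 6 treated libraries.

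**Figure D1:**
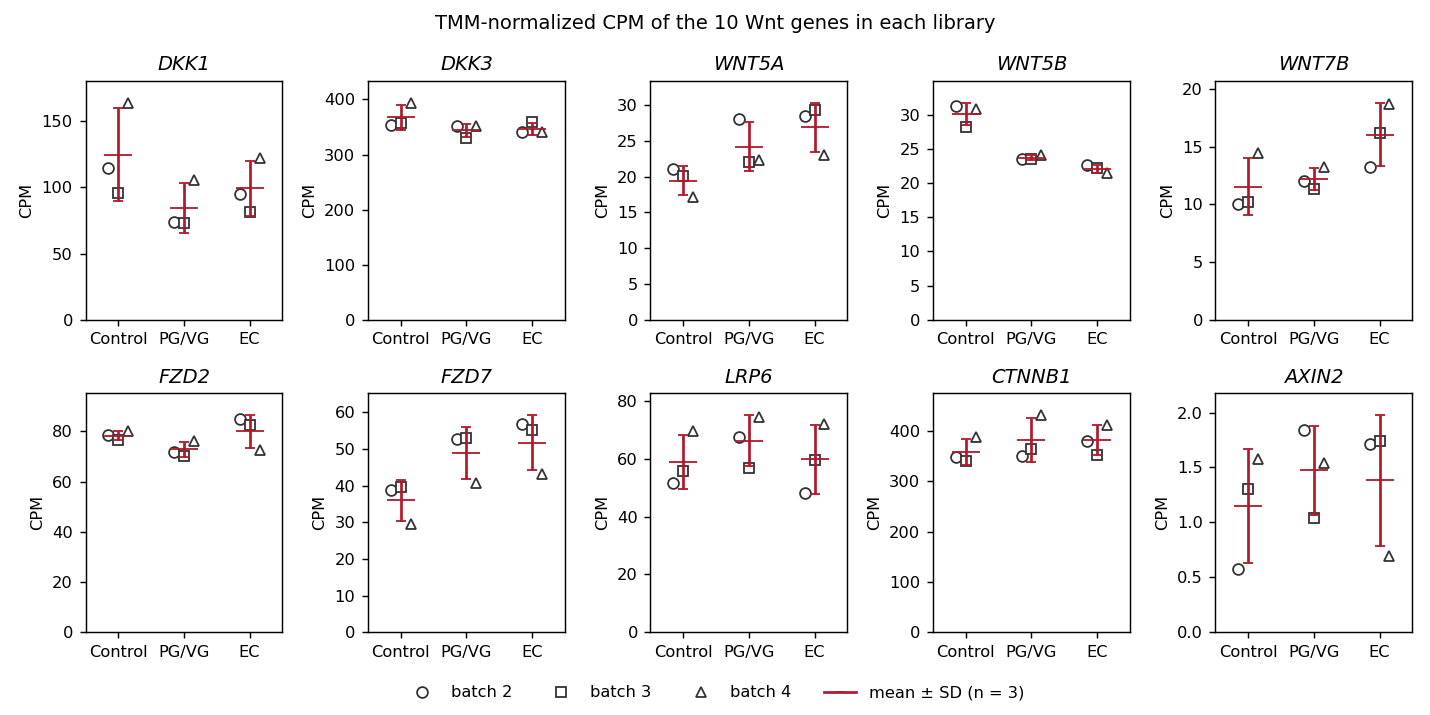
TMM-normalized CPM of the 10 genes in each of the 9 libraries, on axes that start at 0; marker shape gives the batch, and the red line and bar give the mean ± SD of 3 libraries. FZD7, WNT5A and WNT5B separate the control from both treatments, while DKK1 is ordered alike within each batch and is highest in batch 4. The genes were selected on these libraries, so the separation is a description.

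The WNT ligands among the 10 genes did not move as a group. WNT5A (ENSG00000114251, chr3:55465715-55490539, reverse strand), the main ligand of beta-catenin-independent signalling, stood at 21.0, 20.1 and 17.2 CPM in control 2, 3 and 4. It stood at 28.1, 22.1 and 22.3 CPM in PG/VG and at 28.4, 29.3 and 23.0 CPM in EC. All 6 treated libraries were above all 3 control libraries, and PG/VG and EC overlapped. Here and for the genes below such separation is a description, since the share of all tested genes that separate alike is not given. The LFC was 0.47 ± 0.0968 for EC vs. control and 0.32 ± 0.0976 for PG/VG vs. control, and the EC vs. PG/VG value of 0.15 ± 0.0931 came mostly from batch 3, with 0.40 there against 0.02 and 0.05 in batches 2 and 4.

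WNT5B (ENSG00000111186, chr12:1529891-1647212, forward strand), the close relative of WNT5A, was lower after treatment. Its level was 31.3, 28.2 and 30.8 CPM in the control, 23.5, 23.6 and 24.1 CPM in PG/VG and 22.6, 22.2 and 21.5 CPM in EC, in the order of batches 2, 3 and 4. The 3 conditions did not overlap, and the SD within PG/VG and within EC was 0.313 and 0.529 CPM. The LFC was −0.44 ± 0.0877 for EC vs. control, −0.34 ± 0.0875 for PG/VG vs. control and −0.10 ± 0.0874 for EC vs. PG/VG. The ratio of WNT5A to WNT5B CPM within a library was 0.646 ± 0.0798 in the control, 1.02 ± 0.153 in PG/VG and 1.22 ± 0.131 in EC (SD, n = 3). Every treated library, from 0.925 upwards, exceeded every control library, up to 0.712.

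WNT7B (ENSG00000188064, chr22:45920366-45977162, reverse strand), a canonical ligand of the developing lung epithelium, was higher in EC than in the other conditions of the same batch. It had 10.0, 10.2 and 14.4 CPM in control 2, 3 and 4, it had 12.0, 11.3 and 13.2 CPM in PG/VG, and it had 13.2, 16.2 and 18.7 CPM in EC. Control 4 lay above EC 2, so the control and EC ranges overlapped, and PG/VG lay within the control range. The LFC was 0.48 ± 0.116 for EC vs. control, 0.09 ± 0.119 for PG/VG vs. control and 0.39 ± 0.112 for EC vs. PG/VG.

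Of the Frizzled receptors, FZD7 was higher after both condensates and FZD2 was not. FZD7 (ENSG00000155760, chr2:202033855-202038441, forward strand) had 38.9, 39.6 and 29.6 CPM in control 2, 3 and 4, it had 52.7, 53.1 and 40.7 CPM in PG/VG, and it had 56.9, 55.2 and 43.1 CPM in EC. All treated libraries were above all control libraries, and within each batch EC was slightly above PG/VG. The LFC was 0.52 ± 0.0758 for EC vs. control and 0.44 ± 0.0761 for PG/VG vs. control, and over the batches it ran from 0.48 to 0.55 and from 0.42 to 0.46, the closest repeat among the 10 genes. EC vs. PG/VG gave 0.08 ± 0.0734. FZD2 (ENSG00000180340, chr17:44557484-44561262, forward strand), a receptor of the same subfamily, had 78.5, 76.5 and 80.0 CPM in the control, 72.0, 70.4 and 76.2 CPM in PG/VG and 85.0, 82.4 and 72.6 CPM in EC. Here EC 2 and EC 3 were the highest libraries and EC 4 was near the PG/VG values, so that the LFC of EC vs. control was 0.12, 0.11 and −0.14 in the batches and 0.03 ± 0.0766 in the fit. The FZD2 LFC of PG/VG vs. control was −0.10 ± 0.0769, with −0.12, −0.12 and −0.07 in the batches. The PG/VG libraries of FZD2 lay narrowly below the control libraries. The ratio of FZD7 to FZD2 within a library was 0.461 ± 0.0796 in the control, 0.673 ± 0.122 in PG/VG and 0.645 ± 0.0434 in EC (SD, n = 3), with all treated libraries above all control libraries.

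LRP6 (ENSG00000070018, chr12:12116025-12267044, reverse strand), the co-receptor that DKK1 binds, showed no common direction. Its level was 51.8, 55.7 and 69.5 CPM in control 2, 3 and 4, it was 67.7, 56.8 and 74.4 CPM in PG/VG, and it was 48.2, 59.5 and 72.1 CPM in EC. The ranges of all 3 conditions overlapped, and batch 4 was highest in each condition. The LFC was 0.02 ± 0.0886 for EC vs. control and 0.18 ± 0.0885 for PG/VG vs. control, of which the latter came mostly from batch 2 with 0.39 there. CTNNB1 (ENSG00000168036, chr3:41194741-41260096, forward strand) encodes beta-catenin, whose activity is set mainly by protein stability, which was not measured in these counts. It had 348, 341 and 389 CPM in the control, 351, 365 and 432 CPM in PG/VG and 381, 352 and 412 CPM in EC. The ranges overlapped, and the LFC was 0.09 ± 0.0660 for either treatment vs. control and −0.0018 ± 0.0658 for EC vs. PG/VG.

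AXIN2 (ENSG00000168646, chr17:65528563-65561648, reverse strand), a scaffold of the beta-catenin destruction complex and a widely used readout of canonical signalling, was low in all conditions. The libraries held 9 to 45 counts of it. Another annotated gene on the same strand, with 0 counts, overlaps 25.3% of the AXIN2 exons by length. Reads there fall on more than 1 gene and were not counted. The AXIN2 level was 0.572, 1.30 and 1.58 CPM in control 2, 3 and 4, it was 1.84, 1.04 and 1.54 CPM in PG/VG, and it was 1.71, 1.74 and 0.694 CPM in EC. The lowest values were in control 2 and EC 4, and the conditions overlapped. EC vs. control was 1.43, 0.40 and −1.08 in batches 2, 3 and 4, so that the sign differed between batches, and the fitted LFC of 0.25 ± 0.391 had an SE larger than its size. The PG/VG vs. control LFC was 0.36 ± 0.389 and EC vs. PG/VG was −0.10 ± 0.359. None of the 3 comparisons was called for AXIN2.

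**Figure D2:**
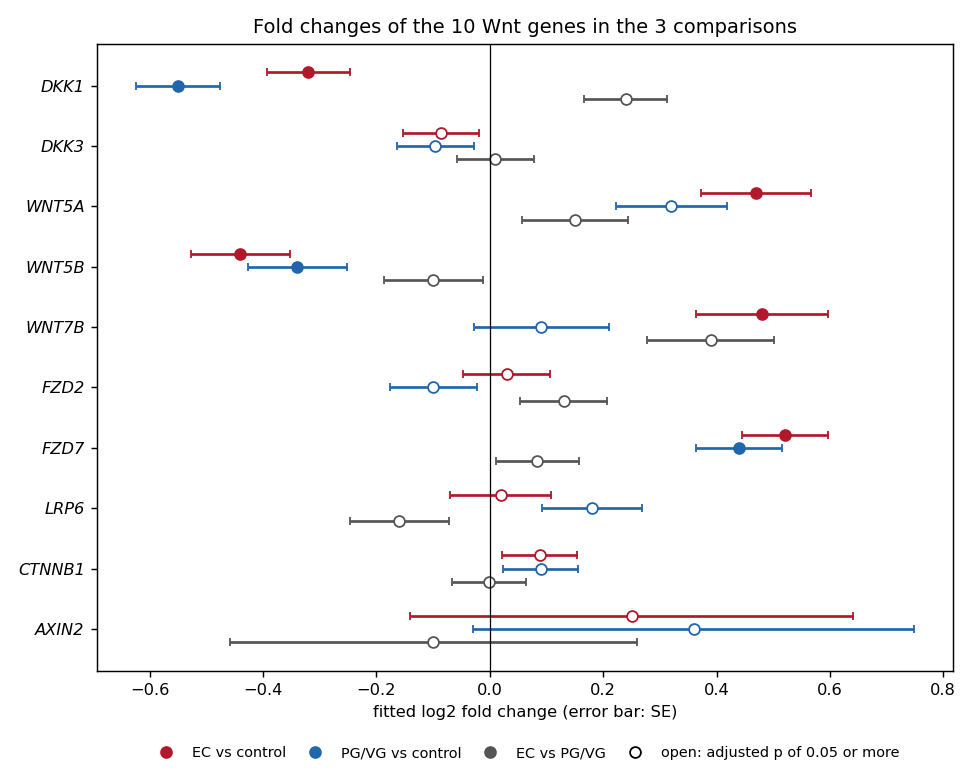
Fitted LFC of the 10 genes in the 3 comparisons, each in its own colour, with bars of 1 SE; filled points had an adjusted p under 0.05 in edgeR, which is shown as a description since the genes were selected on these libraries. FZD7 and WNT5A lie to the right of 0 and DKK1 and WNT5B to the left in both comparisons with the control, and all points of EC vs. PG/VG are open.

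At an adjusted p under 0.05 in edgeR over all 16030 genes, 5 of the 10 genes were called in EC vs. control. WNT5A, WNT7B and FZD7 were on the higher side and DKK1 and WNT5B on the lower side, where the background of called genes was 13.5% in either direction, 8.07% higher and 5.38% lower. In PG/VG vs. control 3 were called, FZD7 on the higher side and DKK1 and WNT5B on the lower side, against 4.54% of all genes, 2.63% higher and 1.90% lower. In EC vs. PG/VG edgeR called none of the 10, against 0.855% of all genes, 0.555% higher and 0.299% lower; 2 had an unadjusted p under 0.05, DESeq2 called none, and ComBat-Seq followed by DESeq2 called 2. The genes were selected on these contrasts, so nothing is read from the counts, nor from treated and control libraries that do not overlap. How many of all tested genes separate in this way is not given here. Both comparisons with the control share the same 3 control libraries. WNT5A in PG/VG was not called with all libraries and was called without PG/VG 3, with an LFC of 0.42, and under library size scaling, no filter, ComBat-Seq with DESeq2 or the pair of conditions alone. The WNT7B call in EC ended without control 3 or EC 3, each with an LFC of 0.40. The WNT5B call in PG/VG ended without any 1 of the 3 control or 3 PG/VG libraries, with LFC between −0.40 and −0.32.

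Several of the 10 genes also differed between batches in the untreated and treated cells alike. The size was of the order of the LFC vs. control for DKK1, FZD7 and WNT5A and above it for LRP6 and CTNNB1. For WNT7B it lay between the EC and PG/VG values. The log2 difference of batch 4 from the mean of batches 2 and 3, averaged over the 3 conditions, was 0.55 ± 0.0895 (SD over conditions) for DKK1, −0.39 ± 0.0160 for FZD7, 0.35 ± 0.0836 for LRP6, 0.34 ± 0.165 for WNT7B, −0.25 ± 0.0818 for WNT5A and 0.21 ± 0.0573 for CTNNB1. DKK1 and FZD7 thus differed in opposite directions between batches, as they did between treated and control cells. For LRP6 and CTNNB1 the 3 libraries of batch 4 were all above the 6 others, 2 of 10 genes, where 29.1% of all tested genes had batch 4 entirely above or below the rest. WNT5B was alike in all batches, with a difference of 0.01 ± 0.0570. The labels give the same number as replicate and batch, and what differed between batches is not given.

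The genes whose pattern was most like DKK1 were sought among 12519 genes with at least 20 counts in all libraries, by Pearson's r of batch-centred log2 CPM over the 9 libraries. The 5 closest were RPLP0P9 (0.994), NDUFAF7 (0.989), SUV39H2 (0.988), NDUFAF3 (0.987) and RPL36AP37 (0.986). RPLP0P9 and RPL36AP37 are processed pseudogenes of ribosomal protein genes, whose counts are uncertain because reads can be shared with the parent gene. All 5 had their highest mean in the control, their lowest in PG/VG and EC between, with 10.3, 7.04 and 8.52 CPM in that order for RPLP0P9 and 37.3, 32.5 and 34.6 CPM for SUV39H2, a histone methyltransferase. They were picked for their likeness to DKK1, so this shared order follows from the choice. Of the other 9 genes, WNT5B was the most like DKK1 (r = 0.790) and FZD7 the most opposed (r = −0.808). For AXIN2 the 5 closest were PRKCH, NREP, DEXI, PLD2 and NEIL2, from 0.965 to 0.921, a pattern that rests on few AXIN2 counts. These values describe the same 9 libraries, which share 3 conditions and 3 batches, and no p is given.

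A further 110 Wnt pathway genes without DKK1 and the 9 others were looked up in the same fit, where 77 passed the filter and were tested. They were gene families of the pathway and a hand-picked set of 12 reported target genes. These lists were also chosen with earlier results of the same libraries known. The shares called, here and by role below, are therefore a description beside the share of all tested genes. Of the 33 that did not, none had more than 16 counts in a library, and WNT8A, FZD10, WIF1, RSPO1 and RSPO3 had 0 counts in all libraries. In EC vs. control 13 rose and 5 fell (23.4% of 77, beside 13.5% of all tested genes), and 57 of the 77 had an LFC above 0, with a median LFC of 0.14 where that of all tested genes was 0.0078. In PG/VG vs. control 6 rose and none fell (7.79%, beside 4.54%), with a median of 0.11 beside 0.013. In EC vs. PG/VG 2 rose and 1 fell (3.90%, beside 0.855%), with a median of −0.026 beside 0.0024. With library size as the only scaling, EC vs. control gave 21 rises and 2 falls. Without the batch term it gave 1 call, and the other comparisons gave none.

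**Figure D3:**
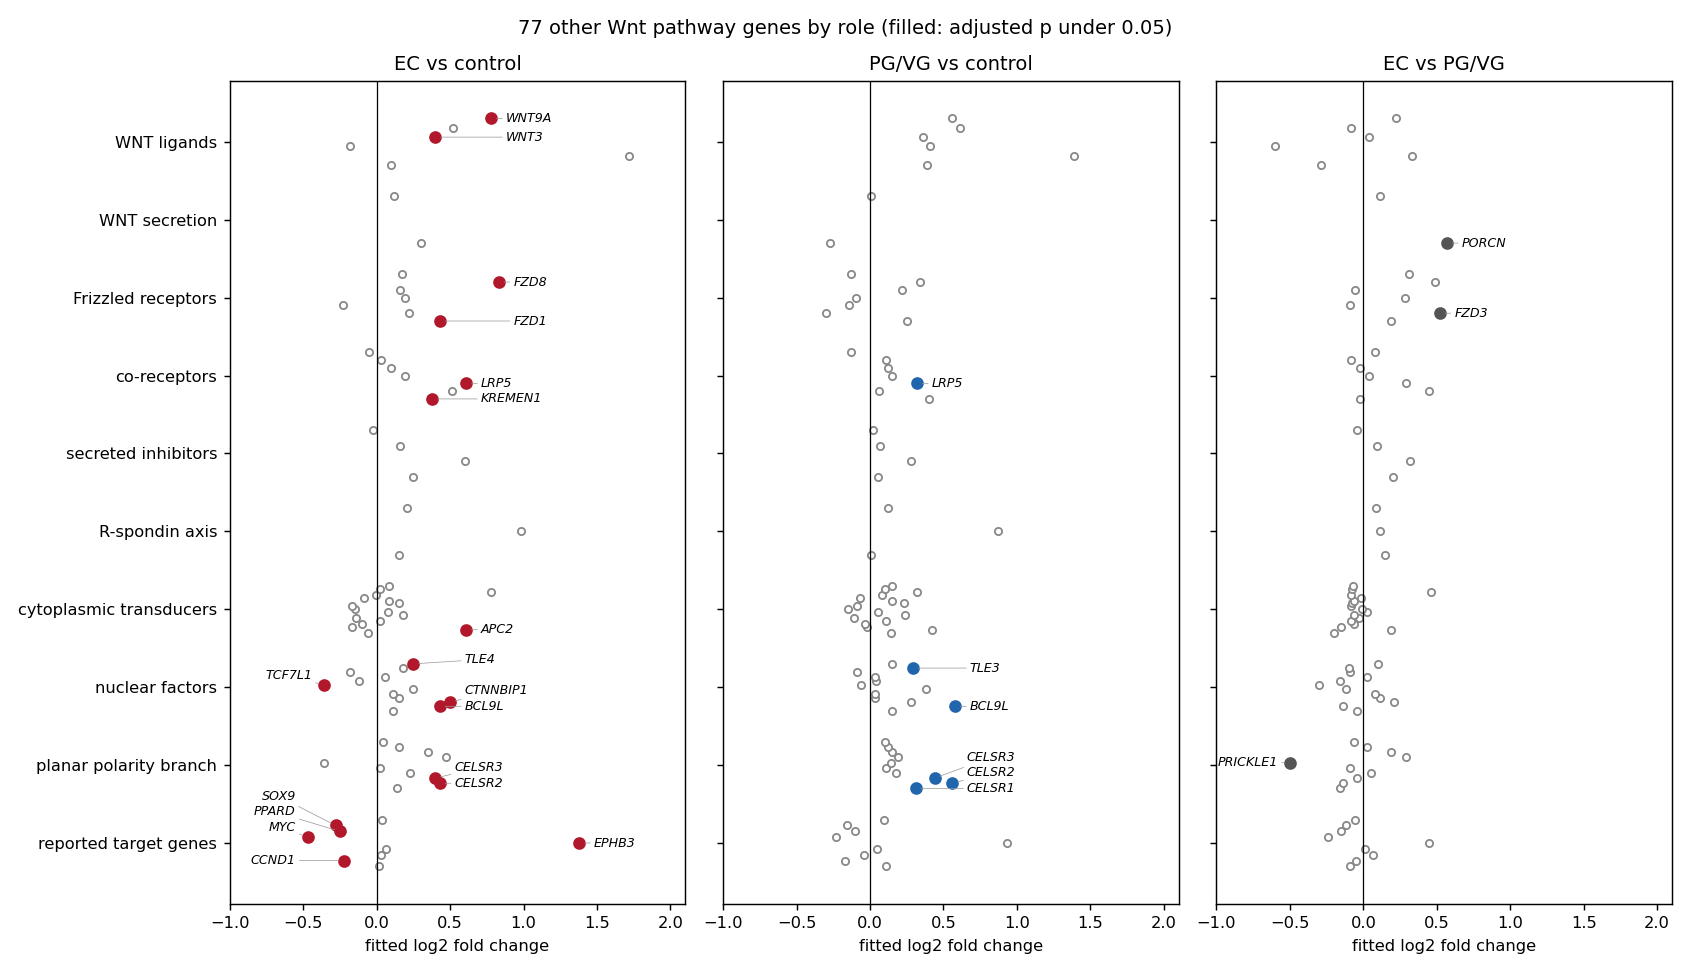
Fitted LFC of the 77 tested further Wnt pathway genes by role, 1 panel per comparison; filled and named points passed an adjusted p of 0.05 in edgeR over all genes. In EC vs. control the named receptors, co-receptors and ligands lie to the right of 0. Of the hand-picked target genes, 4 of the 5 named ones lie to the left, while 5 of all 9 tested lie to the right.

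Among the partners of DKK1 at the cell surface, LRP5, the co-receptor beside LRP6, had 103, 110 and 124 CPM in control 2, 3 and 4, it had 137, 143 and 142 CPM in PG/VG, and it had 168, 182 and 165 CPM in EC. The 3 conditions did not overlap for LRP5, while those of LRP6 did. The share of all tested genes that separate in this way is not given here. In edgeR LRP5 rose in EC vs. control (LFC 0.61 ± 0.0725, adjusted p = 8.36e-06) and in PG/VG vs. control (0.32 ± 0.0725, adjusted p = 0.0119, lost without control 2, control 3, PG/VG 2 or PG/VG 4 with adjusted p up to 0.141), and its EC vs. PG/VG LFC was 0.29 ± 0.0715 (adjusted p = 0.0525). In the control LRP5 stood at 18.2 ± 1.67 CPM per kb, above LRP6 and below PTK7, the most abundant co-receptor at 22.9 ± 1.94. The ratio of LRP5 to LRP6 CPM within a library was 1.92 ± 0.120 in the control, 2.15 ± 0.321 in PG/VG and 2.95 ± 0.608 in EC (SD, n = 3), and the 3 EC libraries, from 2.29 upwards, were above the 3 control libraries. KREMEN1, which forms a complex with DKK1 and LRP6, passed in EC vs. control with an LFC of 0.38 ± 0.126 (adjusted p = 0.0480 in edgeR), but the LFC was 0.63 and 0.52 in batches 2 and 3 and −0.04 in batch 4. That call was lost with RLE normalization (0.0533) and with DESeq2 (0.0967), and without control 2, control 3, PG/VG 4, EC 2 or EC 3 (up to 0.347).

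Of the Frizzled genes beside FZD2 and FZD7, 2 of 7 tested rose in EC vs. control (28.6%, beside 8.07% of all tested genes higher), FZD8 by 0.83 ± 0.150 (adjusted p = 0.000670 in edgeR) and FZD1 by 0.43 ± 0.0989 (adjusted p = 0.00511, lost without control 2 at 0.0760). FZD8 was far below FZD7 in level, at 1.18 ± 0.435 against 7.86 ± 1.22 CPM per kb in the control, and FZD6 was the most abundant at 27.0 ± 1.05 CPM per kb. In PG/VG vs. control edgeR called none of the 7, with 4 at an unadjusted p under 0.05, none by DESeq2 and 1 by ComBat-Seq with DESeq2.

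Of the ligand genes beside WNT5A, WNT5B and WNT7B, 6 of 16 were tested, and WNT3, the most abundant at 2.32 ± 0.423 CPM per kb, was near WNT5A and WNT7B in level. Of the 6, 2 rose in EC vs. control (33.3%, beside 8.07% of all tested genes higher). WNT3 rose by 0.40 ± 0.109 (adjusted p = 0.0168 in edgeR, lost without control 2, control 4, EC 2 or EC 4 with adjusted p up to 0.113) and WNT9A by 0.78 ± 0.203 (adjusted p = 0.0121, lost without control 2 or EC 4, up to 0.119). For PG/VG edgeR called none of the 6, with 3 at an unadjusted p under 0.05, none by DESeq2 and 1 by ComBat-Seq with DESeq2. PORCN, which attaches the lipid to Wnt proteins, rose in EC vs. PG/VG by 0.57 ± 0.106 (adjusted p = 0.00829 in edgeR, lost without PG/VG 2 or EC 2, up to 0.195), and WLS, their carrier at 25.3 ± 6.40 CPM per kb, did not pass in any comparison.

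The secreted inhibitors beside DKK1 and DKK3 held no call in any comparison. Of 15 genes 4 were tested, and edgeR, DESeq2 and ComBat-Seq with DESeq2 called none, with none at an unadjusted p under 0.05 in edgeR. SFRP1, a decoy receptor for Wnt proteins, was the most abundant of them at 17.2 ± 2.81 CPM per kb, below DKK3 and DKK1. In the R-spondin axis, which regulates the turnover of Frizzled receptors, none of 3 tested genes was called by edgeR or DESeq2 in any comparison. Of these genes 2 had an unadjusted p under 0.05 in edgeR for EC, 1 for PG/VG and 0 between the treatments. The most abundant gene of the axis was LGR4 at 8.48 ± 2.63 CPM per kb. RNF43, a ligase of that axis, had at most 2 counts in a library, and other genes overlap 69.0% of its exons by length.

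Around CTNNB1, 1 of 17 tested cytoplasmic transducers passed in EC vs. control (5.88%, a smaller share than the 13.5% of all tested genes), APC2, a relative of the destruction complex scaffold APC, which rose by 0.61 ± 0.149 (adjusted p = 0.00890 in edgeR, lost without control 4 or EC 4, up to 0.0942). None of the 17 passed edgeR in PG/VG vs. control, with 4 at an unadjusted p under 0.05, none by DESeq2 and 2 by ComBat-Seq with DESeq2. The most abundant transducer in the control was DVL1 at 34.0 ± 2.21 CPM per kb, near CTNNB1 in level. Of 12 tested nuclear factors, 4 passed in EC vs. control (33.3%, beside 13.5%) and 2 in PG/VG vs. control (16.7%, beside 4.54%). CTNNBIP1, which blocks its binding to TCF factors, rose in EC by 0.50 ± 0.102 (adjusted p = 0.00217 in edgeR). The co-activator BCL9L rose in EC by 0.43 ± 0.0848 and in PG/VG by 0.58 ± 0.0849 (adjusted p = 0.00146 and 0.000429 in edgeR), and other genes overlap 37.5% of its exons by length. TCF7L1, a TCF factor that acts mostly as a repressor, fell in EC by 0.36 on the log2 scale (SE 0.0983, adjusted p = 0.0179 in edgeR, lost without control 3 or EC 3, up to 0.223). The co-repressors TLE4 in EC (0.25 ± 0.0766, adjusted p = 0.0334 in edgeR) and TLE3 in PG/VG (0.29 ± 0.0773, adjusted p = 0.0347) rose, with calls lost without control 2, 3 or 4, EC 3 or EC 4 for TLE4 (up to 0.212) and without any control or PG/VG library for TLE3 (up to 0.221). PYGO2 was the most abundant of these nuclear factors at 15.9 ± 0.527 CPM per kb.

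In the planar polarity branch, to which WNT5A signals belong, the 3 CELSR cadherin genes rose in PG/VG vs. control and CELSR2 and CELSR3 rose in EC vs. control, which makes 3 of 10 tested (beside 4.54% of all tested genes) and 2 of 10 (beside 13.5%). CELSR3 rose by 0.44 ± 0.0921 in PG/VG and 0.40 ± 0.0921 in EC (adjusted p = 0.00664 and 0.00573 in edgeR), lost without control 3 or PG/VG 2 (up to 0.0989) and without control 3 or EC 3 (up to 0.0769). CELSR2 rose by 0.56 ± 0.107 and 0.43 ± 0.107 (adjusted p = 0.00429 and 0.0113 in edgeR), lost without PG/VG 2 (0.0755) and without control 2, EC 3 or EC 4 (up to 0.0971). CELSR1, the most abundant at 6.67 ± 0.495 CPM per kb, rose in PG/VG by 0.31 ± 0.0821 (adjusted p = 0.0338 in edgeR, lost without control 2, control 3, PG/VG 2, PG/VG 4 or EC 4, up to 0.387). PRICKLE1, a cytoplasmic member of the branch, fell in EC vs. PG/VG (LFC −0.50 ± 0.117, adjusted p = 0.0439 in edgeR, lost without PG/VG 2, 3 or 4, EC 2 or EC 3, up to 0.402), as FZD3 rose by 0.52 ± 0.125 (adjusted p = 0.0463, lost without control 3, PG/VG 2, 3 or 4, or EC 2, 3 or 4, up to 0.287).

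Beside AXIN2, 9 genes of the hand-picked set of reported targets of canonical signalling were tested. In EC vs. control 4 fell and 1 rose (55.6%, beside 13.5% of all tested genes, 5.38% lower and 8.07% higher). Called or not, 5 of the 9 had an LFC above 0 and 4 below. These counts depend on which genes were put in the set, and genes listed under other roles were not counted in it. MYC had 144, 147 and 94.2 CPM in control 2, 3 and 4, it had 124, 124 and 80.1 CPM in PG/VG, and it had 111, 99.3 and 67.1 CPM in EC. Within each batch the order was control above PG/VG above EC, whereas DKK1 was lowest in PG/VG. The MYC LFC was −0.47 ± 0.0698 in EC vs. control (adjusted p = 9.36e-05 in edgeR) and −0.23 ± 0.0694 in PG/VG vs. control (adjusted p = 0.0565 in edgeR). In EC vs. control SOX9 (−0.28 ± 0.0793), PPARD (−0.25 ± 0.0762) and the cyclin CCND1 (−0.22 ± 0.0716) fell as well, with adjusted p = 0.0202, 0.0322 and 0.0470 in edgeR. These calls ended without control 2, control 3, EC 2 or EC 4 for SOX9 (up to 0.149), without control 2, control 3, EC 2 or EC 3 for PPARD (up to 0.217), and without any control library, PG/VG 2, EC 2 or EC 4 for CCND1 (up to 0.247), the most abundant target at 64.9 ± 36.3 CPM per kb. EPHB3, which like AXIN2 was low, at 0.381 to 3.92 CPM, rose by 1.38 ± 0.331 (adjusted p = 0.00752 in edgeR), and without control 4 or EC 4 the call ended with an LFC of 1.04 or 0.89. None of the 9 passed edgeR in PG/VG vs. control, with 3 at an unadjusted p under 0.05, 1 by DESeq2 and 2 by ComBat-Seq with DESeq2. The calls of FZD8, LRP5, CTNNBIP1, BCL9L and MYC in EC vs. control and of BCL9L in PG/VG vs. control stayed whichever of the 9 libraries was left out.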

How the data were processed

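RNA of 9 BEAS-2B libraries was sequenced on poly-A selected, paired-end libraries. The authors trimmed reads with fastp, aligned them to GRCh38.p12 with STAR and counted exonic reads per gene with featureCounts of Subread 2.0.4, leaving out reads that map to several places or overlap several genes. The strand setting is not given in the sources used here. The deposited values are raw counts.

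The 10 genes and the lists were chosen with earlier results of these data known. The 16030 genes that reached 10 counts in 3 or more libraries were fitted in R 4.3.3 with edgeR 4.0.16: TMM factors (0.971 to 1.05), batch as a block, quasi-likelihood tests and Benjamini-Hochberg adjustment over all genes at 0.05. The labels give the same number as replicate and batch, and same-numbered libraries deviated together (correlations 0.334 to 0.707 in 9 pairs, −0.539 to 0.426 in 18 others). SE is the absolute LFC divided by the square root of F. Exon lengths are from GENCODE 44, where 62666 identifiers were found. Further genes named are those called in any comparison and the most abundant of each role. Alternatives were RLE or library size scaling, other filters, no block, DESeq2 1.42.0, ComBat-Seq of sva 3.50.0 with DESeq2, pairs of conditions alone and each library left out.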

Additional observations from a re-analysis of the deposited data

Results flagged for a closer look

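In 3 of the further Wnt pathway genes, all tested over 16030 genes, the effects of EC and of PG/VG differed by the direct test of EC vs. PG/VG in edgeR. PORCN, which attaches the lipid to Wnt proteins, differed by an LFC of 0.57 ± 0.106, with 0.30 ± 0.107 for EC and −0.27 ± 0.110 for PG/VG against the control. FZD3, a Frizzled receptor, differed by 0.52 ± 0.125, with 0.22 ± 0.126 and −0.30 ± 0.131. PRICKLE1, a planar polarity gene, differed by −0.50 ± 0.117, with −0.36 ± 0.121 and 0.14 ± 0.118, and other genes overlap 23.7% of its exons by length. In none of the 3 did either comparison with the control pass an adjusted p of 0.05 in edgeR (adjusted p = 0.0652 and 0.175 for PORCN, 0.262 and 0.203 for FZD3, 0.0514 and 0.556 for PRICKLE1). Each direction was shared by 3 of 3 batches. The FZD3 call ended without any 1 of 7 libraries (control 3, PG/VG 2, 3 or 4, EC 2, 3 or 4, adjusted p up to 0.287) and with DESeq2 (0.0726), that of PRICKLE1 without any 1 of 5 (PG/VG 2, 3 or 4, EC 2 or EC 3, up to 0.402) and with library size scaling (0.0550), and that of PORCN without PG/VG 2 or EC 2 (up to 0.195). The batches differed in level, with PORCN at 31.5 to 40.6 CPM in batch 4 and 10.7 to 21.2 CPM in batches 2 and 3, and PRICKLE1 at 6.35 to 7.76 CPM in batch 4 and 12.1 to 20.3 CPM in batches 2 and 3.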

How the results depend on the processing

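Of the further Wnt genes the fit without the replicate block left 1 call in EC vs. control (LRP5, adjusted p = 0.0460 in edgeR) in place of 18, 0 in PG/VG vs. control in place of 6 and 0 in EC vs. PG/VG in place of 3, and of the 10 genes it left 0 of 5 and 0 of 3 vs. control, while the LFC of DKK1 was −0.33 and −0.57. In PG/VG vs. control the further genes gave 10 calls with library size as the only scaling, 10 without a filter beyond 1 count and 15 with ComBat-Seq then DESeq2. In EC vs. PG/VG they gave 7 with ComBat-Seq then DESeq2 and 5 with the 2 conditions alone, and ComBat-Seq then DESeq2 called 2 of the 10 genes. With 1 library left out, calls ranged from 9 (without control 2) to 18 in EC vs. control, from 1 (without PG/VG 2) to 8 in PG/VG vs. control and from 0 (without PG/VG 2 or EC 2) to 4 in EC vs. PG/VG. KREMEN1 missed the threshold with RLE (0.0533) and DESeq2 (0.0967), TLE4 and FZD3 with DESeq2 (0.0574 and 0.0726), CCND1 with library size only (0.146) and without a filter beyond 1 count (0.0701), and PPARD, SOX9 and PRICKLE1 with library size only (0.101, 0.0637 and 0.0550). No called LFC changed sign. Among the 10 genes, uncalled LFC did for AXIN2 in each comparison (−0.24 to 0.70 in EC vs. control with 1 library left out), WNT7B in PG/VG vs. control, FZD2 and LRP6 in EC vs. control, and DKK3 and CTNNB1 in EC vs. PG/VG. Uncalled LFC of further genes changed sign as well and are not listed. The LFC of the 10 genes moved by more than the SD between batches in 4 of 30 values with library size only (FZD7 in 3 comparisons, CTNNB1 in EC) and in none under the other settings that kept all 9 libraries. A minimum of 10 counts in every library left AXIN2 out. AXIN2 rests on 9 to 45 counts per library. The cause of these changes was not tested.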
